A study of Sus scrofa with 6 samples.

Results

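BCL11B, LEF1, GATA3, HHEX and BCL11A encode transcription factors that mark the T-cell lineage or the progenitors and other blood lineages beside it. They were taken by name from the tables, and all 5 were found among 4122 listed genes. Lymph node, spleen and thymus of pigs with a biallelic RAG2 knockout were compared with those of wild-type littermates, all at 3 months of age. With 1 RNA-seq library for each of the 3 tissues in each genotype, the genotype differences below have no replicates behind them and carry no p-value. The series title describes the animals as immunodeficient pigs lacking a single amino acid, the genotype label reads RAG2 Knockout, and neither states which protein function remains. Whether the tissues of a genotype came from the same animal is not given in the sources used here.

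T cells arise in the thymus from blood-borne progenitors that receive Notch signals, switch off progenitor genes and switch on a T-cell programme before they rearrange the T-cell receptor. RAG1 and RAG2 form the recombinase that cuts receptor genes for this rearrangement. GATA3, a zinc finger factor, acts early in this programme and again in helper T cells and innate lymphoid cells. BCL11B, a zinc finger repressor, completes commitment to the T lineage. LEF1, an HMG box factor, carries Wnt signals to DNA and works with its relative TCF7 in thymocytes. HHEX, a homeobox factor, belongs to progenitors, B cells, myeloid cells and endothelium. BCL11A, the paralogue of BCL11B, is known from progenitors, B cells and plasmacytoid dendritic cells.

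In the Sscrofa11.1 annotation BCL11B spans chromosome 7, 120205008 to 120295737, and LEF1 chromosome 8, 113824511 to 113944078. GATA3 spans chromosome 10, 63367684 to 63397977, HHEX chromosome 14, 104194424 to 104199684, and BCL11A chromosome 3, 81195217 to 81296165. Levels are in FPKM (fragments per length of transcript and depth of the library), computed by the authors separately for each tissue, so levels set side by side across tissues are a description. The call of a higher or lower gene needed a log2 ratio of 1 or more in size, with the knockout as numerator and 1 FPKM added to each level. That ratio understates the difference of genes near 0. A call rests on size alone, so for genes with few fragments the counting interval can include equal levels. Folds compare the scaled fragments of the libraries and carry 95% Clopper-Pearson intervals, and levels carry 95% exact Poisson intervals. Both cover counting error only and not the spread between animals.

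Each library held between 1922562 and 2541724 fragments on listed genes. RAG1, listed as RAG-1, stood at 3435 FPKM in the wild-type against 7134 FPKM in the knockout thymus, and RAG2 at 606 and 1072 FPKM, so these transcript levels do not check the genotype labels. The 7 T-cell markers summed to 1469 FPKM in the wild-type against 149 FPKM in the knockout lymph node, 555 and 275 FPKM in spleen, and 6408 and 3237 FPKM in thymus. The 5 B-cell markers summed to 1585 and 4.50 FPKM in lymph node, 540.5 and 6.63 FPKM in spleen, and 156 and 186 FPKM in thymus. CCL25, a thymic epithelial chemokine, stood at 1423 and 414 FPKM in thymus, was listed at 0 in both lymph nodes and had 0 and 1 fragments in spleen. The 3 fat-cell markers summed to 31.3 FPKM in the wild-type against 7884 FPKM in the knockout lymph node, 11.6 and 5.20 FPKM in spleen, and 163 and 1432 FPKM in thymus. The red-cell gene HBB had 376 and 6738 FPKM in lymph node, 41406 and 18970 FPKM in spleen, and 912 and 4782 FPKM in thymus. The part of these cell types in the values of the 5 genes was not tested. In tissue RNA, fewer cells of a type and less RNA per cell cannot be told apart.

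The 5 genes differed in where the knockout departed from wild type. BCL11B and LEF1 were lower in the knockout lymph node and spleen and were not called in thymus. GATA3 was lower in spleen and thymus, HHEX was higher in thymus, and BCL11A was lower in lymph node. In lymph node 3 of the 5 were called lower, beside 10.3% of all 2910 measured genes, and none higher, beside 15.3%. In spleen 3 of the 5 were called lower, beside 10% of 2849 genes, and none higher, beside 8.88%. In thymus 1 was called lower and 1 higher, beside 10.9% and 15.2% of 2908 genes. The 5 genes were chosen with earlier results of these data known, so these counts describe them and are no test.

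**Figure D1:**
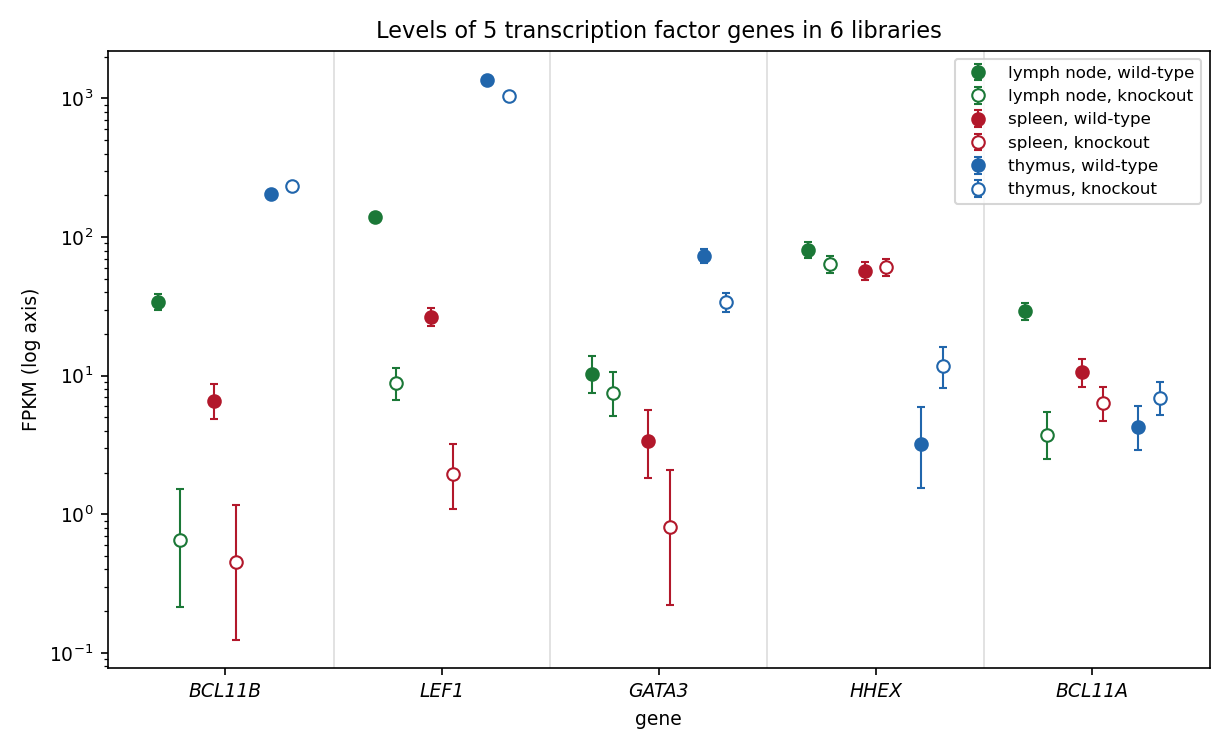
FPKM of the 5 genes (log axis) in each library, filled points for wild type and open points for knockout, with 95% exact Poisson intervals for counting error. BCL11B, LEF1 and GATA3 stand highest in thymus and HHEX lowest there, and the open BCL11B points of lymph node and spleen lie below 1 FPKM.

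BCL11B was highest in thymus and near the limit of detection in the knockout lymph node and spleen. Its level was 205 FPKM in the wild-type thymus against 235 FPKM in the knockout thymus, on 1566 and 1843 fragments. In lymph node it stood at 34.1 FPKM in wild type against 0.655 FPKM in the knockout, on 248 and 5 fragments. In spleen the values were 6.56 and 0.457 FPKM, on 49 and 4 fragments. The wild-type library was thus the higher one in lymph node and spleen and the lower one in thymus.

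The fold differences of BCL11B were 51.8-fold lower in the knockout lymph node (interval 21.9 to 161, log2 ratio -4.40) and 14.3-fold lower in spleen (5.24 to 54.6, log2 ratio -2.37). In thymus BCL11B was 1.15-fold higher (1.07 to 1.23, log2 ratio 0.20), short of a call. With 5 FPKM added in place of 1 the log2 ratios were -2.79 in lymph node and -1.08 in spleen, still called, and with 0.1 FPKM added they were -5.50 and -3.58. From the bottom of the log2 ratios it ranked 14 of 2910 measured genes in lymph node and 56 of 2849 in spleen. In thymus it lay near the middle, with 60.5% of measured genes below it. The knockout lymph node and spleen did not differ from each other beyond counting error in BCL11B (1.44-fold, interval 0.309 to 7.23), and every other pair of neighbours in the order of the 6 libraries had separate intervals.

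LEF1 was the most abundant of the 5 in thymus. Its level was 1359 FPKM in the wild-type against 1043 FPKM in the knockout thymus, on 9085 and 7147 fragments, above 96.0% and 95.7% of the genes at 1 FPKM or more in those libraries. In lymph node LEF1 had 140 FPKM in wild type against 8.84 FPKM in the knockout (889 and 59 fragments), and in spleen 26.5 and 1.96 FPKM (173 and 15 fragments). The order was wild-type thymus, knockout thymus, wild-type lymph node, wild-type spleen, knockout lymph node and knockout spleen, and no neighbours in it had overlapping counting intervals.

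LEF1 was 15.8-fold lower in the knockout lymph node (12.1 to 20.9, log2 ratio -3.84) and 13.5-fold lower in spleen (7.94 to 24.6, log2 ratio -3.22). In thymus it was 1.30-fold lower (1.26 to 1.34, log2 ratio -0.38), beyond counting error but short of a call. It ranked 23 of 2910 from the bottom in lymph node and 31 of 2849 in spleen. The pattern of BCL11B and LEF1, lower in lymph node and spleen with no call in thymus, was shared by 34 of 2671 genes measured in all 3 tissues, or 1.27%.

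GATA3 differed from these genes in lymph node. Its level was 10.3 FPKM in the wild-type against 7.50 FPKM in the knockout lymph node, on 42 and 32 fragments, a 1.37-fold lower level whose interval of 0.846 to 2.25 includes equal levels (log2 ratio -0.42). In spleen it had 3.36 and 0.816 FPKM on 14 and 4 fragments, 4.09-fold lower (1.28 to 17.1, log2 ratio -1.26). That spleen call rests on few fragments and ended with 5 FPKM added in place of 1, at a log2 ratio of -0.523.

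In thymus GATA3 reached 73.1 FPKM in wild type against 33.9 FPKM in the knockout, on 312 and 148 fragments. It was 2.16-fold lower in the knockout thymus (1.77 to 2.64, log2 ratio -1.09), where BCL11B and LEF1 were not called. With counts scaled to their total the thymus value was -0.981, just under the size for a call. GATA3 was the lowest of the 5 genes by log2 ratio in thymus, with 9.73% of measured genes below it. Its pattern of no call in lymph node and lower values in spleen and thymus was shared by 23 of 2671 genes, or 0.861%.

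HHEX ran the other way across tissues, with its lowest levels in thymus. It had 81.0 FPKM in the wild-type against 63.8 FPKM in the knockout lymph node (239 and 198 fragments) and 56.8 and 60.5 FPKM in spleen (172 and 216 fragments). These 4 peripheral libraries followed each other in order with overlapping counting intervals. The thymus values were 3.23 FPKM in wild type against 11.7 FPKM in the knockout, on 10 and 37 fragments.

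In the knockout thymus HHEX was 3.61-fold higher (1.76 to 8.14, log2 ratio 1.58), a value that 6.53% of measured genes exceeded. With 5 FPKM added in place of 1 the log2 ratio was 1.02. In lymph node it was 1.26-fold lower (1.04 to 1.53, log2 ratio -0.34) and in spleen 1.08-fold higher (0.876 to 1.32, log2 ratio 0.09), neither of them called. Wild-type lymph node exceeded wild-type thymus 25.1-fold in HHEX FPKM (13.4 to 52.9), and knockout lymph node exceeded knockout thymus 5.47-fold (3.83 to 7.99). A call in thymus alone, higher in the knockout, was shared by 135 of 2671 genes, or 5.05%.

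BCL11A spanned the smallest range, 7.75-fold from its highest to its lowest library, where LEF1 spanned 694-fold. It was highest in the wild-type lymph node at 29.1 FPKM (207 fragments) and stood at 3.76 FPKM in the knockout lymph node (28 fragments). In spleen it had 10.5 FPKM in wild type against 6.31 FPKM in the knockout (77 and 54 fragments). In thymus the order of the genotypes was the opposite, with 4.29 FPKM in wild type against 6.93 FPKM in the knockout (32 and 53 fragments).

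BCL11A was 7.73-fold lower in the knockout lymph node (5.19 to 11.9, log2 ratio -2.66), the only tissue in which it was called. It was 1.67-fold lower in the knockout spleen (1.16 to 2.40, log2 ratio -0.66) and 1.62-fold higher in the knockout thymus (1.02 to 2.59, log2 ratio 0.59). The counting intervals of its levels overlapped between neighbours in the order from the wild-type spleen downwards, and the wild-type lymph node stood apart above them. A call in lymph node alone, lower in the knockout, was shared by 104 of 2671 genes, or 3.89%.

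**Figure D2:**
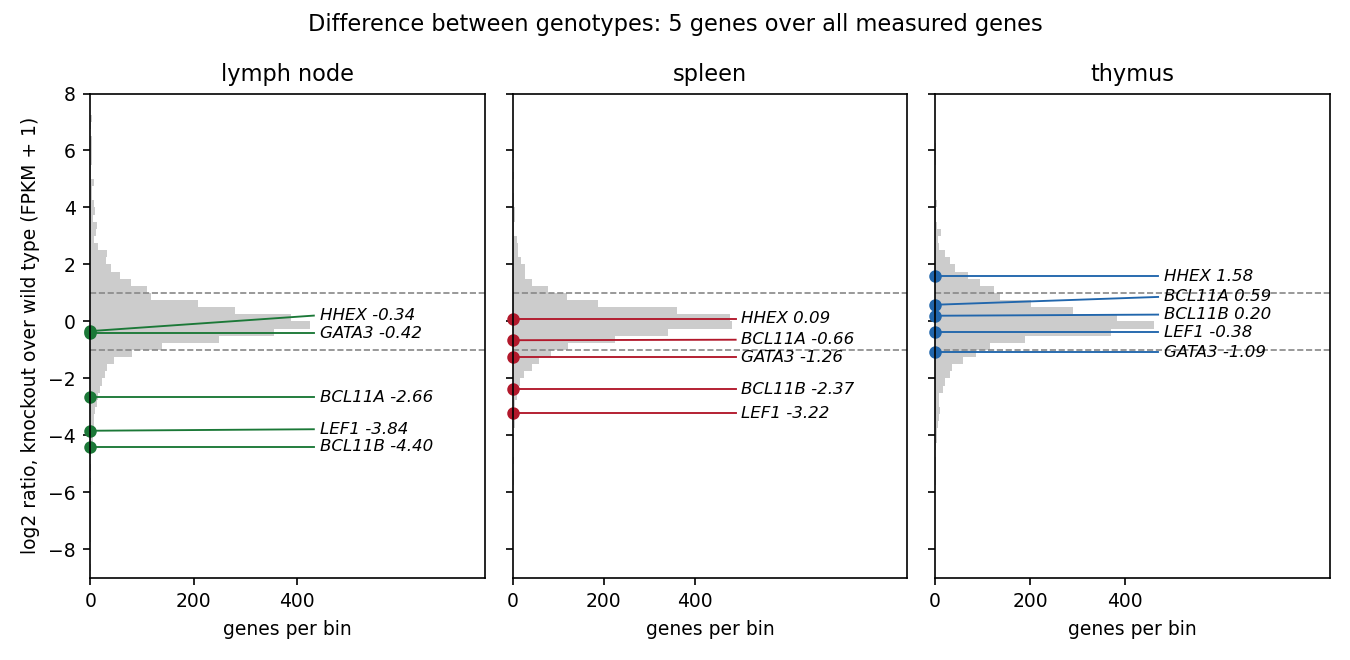
Log2 ratio of knockout over wild type (FPKM with 1 added) for the 5 genes as labelled points, over the distribution of all measured genes of each tissue in grey bins of 0.25, with dashed lines at the size for a call. BCL11B, LEF1 and BCL11A lie in the lower tail in lymph node, whereas in thymus the 5 genes spread from -1.09 for GATA3 to 1.58 for HHEX.

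Ratios of FPKM between genes of the same library do not depend on its depth. The paralogues BCL11B and BCL11A were close to equal in the wild-type lymph node, with a ratio of BCL11B to BCL11A of 1.17 (0.969 to 1.41), and stood at 0.622 (0.425 to 0.901) in the wild-type spleen. In the knockout the ratio was 0.174 (0.0526 to 0.458) in lymph node and 0.0724 (0.0190 to 0.196) in spleen, so BCL11A exceeded BCL11B in both. In thymus BCL11B exceeded BCL11A 47.8-fold in wild type (33.7 to 70.1) against 34.0-fold in the knockout (25.9 to 45.5), with overlapping intervals.

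LEF1 exceeded HHEX 421-fold in the wild-type thymus (229 to 878) and 89.4-fold in the knockout thymus (64.8 to 127). In lymph node the ratio of LEF1 to HHEX went from 1.72 in wild type to 0.139 in the knockout, and in spleen from 0.466 to 0.0323. HHEX made up 75.5% of the summed FPKM of the 5 genes in the knockout lymph node and 86.4% in the knockout spleen, against 27.5% and 54.8% in wild type. LEF1 made up 82.6% of the sum in the wild-type thymus and 78.4% in that of the knockout.

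The T-lineage factors were also set against CD3E, a signalling chain of the T-cell receptor complex. In thymus the ratio of BCL11B to CD3E was 0.122 in wild type (0.115 to 0.129) against 0.256 in the knockout (0.242 to 0.272). LEF1 to CD3E went from 0.806 (0.780 to 0.834) to 1.14 (1.09 to 1.19). GATA3 to CD3E was 0.0434 (0.0386 to 0.0486) and 0.0369 (0.0311 to 0.0435), with overlapping intervals. CD3E itself stood at 1685 FPKM in the wild-type against 918 FPKM in the knockout thymus, a log2 ratio of -0.88. In the same thymus pair CD3D was 2.43-fold lower (2.23 to 2.65) and CD3G 1.19-fold lower (1.12 to 1.27). LEF1 was 1.30-fold lower (1.26 to 1.34), so the direction of its ratio in thymus depends on the gene chosen. In lymph node the ratio to CD3E was 0.117 and 0.706 (0.137 to 4.54 in the knockout) for BCL11B, 0.478 and 9.52 (3.10 to 47.5) for LEF1, and 0.0354 and 8.07 (2.52 to 41.2) for GATA3. In spleen it was 0.0422 and 0.212 (0.0467 to 0.791) for BCL11B, 0.171 and 0.908 (0.361 to 2.47) for LEF1, and 0.0216 and 0.378 (0.0834 to 1.41) for GATA3. In the knockout, CD3E had 3 fragments in lymph node and 8 in spleen, so these ratios have wide intervals. The ratio was higher in the knockout for all 3 factors in lymph node and spleen, with overlapping intervals only for BCL11B in spleen. CD3E was the lowest T-cell receptor gene listed below in both tissues. For BCL11B and LEF1 in both tissues, and for GATA3 in spleen, the direction therefore depends on the gene chosen. The T-cell gene CD3D was 1.13-fold higher in the knockout spleen (0.904 to 1.41), where all 3 factors were lower. In lymph node CD3D was 13.6-fold lower (9.4 to 20.2), against 51.8-fold for BCL11B, 15.8-fold for LEF1 and 1.37-fold for GATA3.

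**Figure D3:**
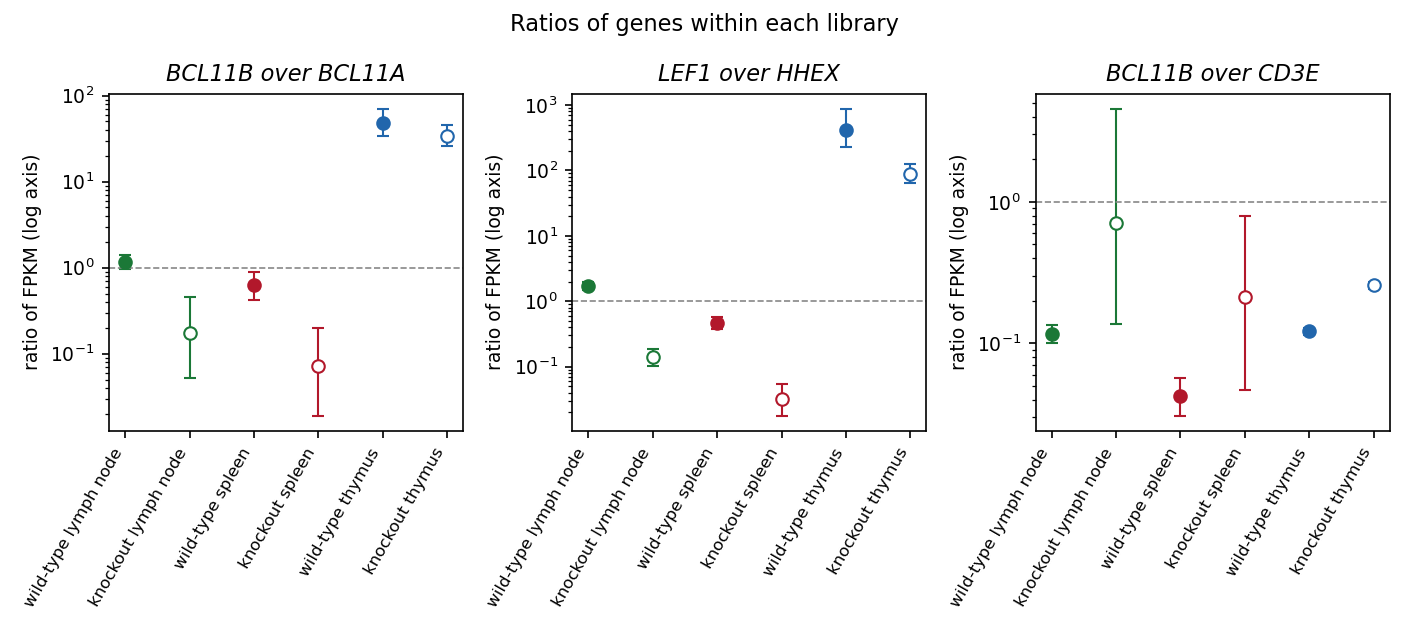
Ratio of FPKM within each library (log axis) of BCL11B to BCL11A, LEF1 to HHEX and BCL11B to CD3E, filled points for wild type and open points for knockout, with 95% Clopper-Pearson intervals. The BCL11B to BCL11A and LEF1 to HHEX ratios are lower in the knockout in lymph node and spleen, and the BCL11B to CD3E ratio is higher in the knockout thymus (0.256 against 0.122).

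T-cell receptor and coreceptor genes gave the setting of BCL11B and LEF1. In lymph node 15 of 19 measured genes of this list were lower and 2 higher, with a median log2 ratio of -3.14 (-2.71 with genes at 0 placed at their bound), beside -0.00456 for all measured genes. The lowest were CD3E (-7.25, 897 and 3 fragments), CD3G (-5.58) and the coreceptor chain CD8B (-4.10), so BCL11B at -4.40 and LEF1 at -3.84 lay within the range of the list. In spleen 11 of 17 were lower and none higher (median -1.18), led by CD3E (-5.63), the helper-cell ligand CD40LG (16 and 0 fragments) and the receptor regulator CD5 (-2.26). The other 6 were not called: CD8B (0.21), CD3D (0.15, 145 and 191 fragments), CD247 (-0.52), CD3G (-0.62), LCK (-0.68) and CD2 (-0.69). BCL11B in spleen, at -2.37, was below each of these 6. LEF1 in spleen, at -3.22, was by log2 ratio below all of this list but CD3E and CD40LG. By fold, RAG-1 (22.2-fold lower, 19 and 1 fragments) and CD28 (15.2-fold lower, 13 and 1 fragments) also exceeded LEF1 (13.5-fold lower). With 3 fragments in place of 0, CD40LG was 6.23-fold lower.

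In thymus 15 of 20 genes of the list were lower and 2 higher (median -2.30, or -1.97 with genes at 0 at their bound). The lowest were the homing receptor CCR9 (-5.52, 1547 and 31 fragments), the coreceptor chain CD8A (-5.43) and the costimulator CD28 (-4.79). The log2 ratios of BCL11B (0.20) and LEF1 (-0.38) in the same pair of libraries were above most of the list. The recombinase gene RAG-1 was higher at 1.05.

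Of other regulators of the T lineage, 10 of 31 chosen were in the tables. In lymph node 1 of 8 measured was lower (median -0.13), in spleen 2 of 8 (median 0.0016) and in thymus 1 of 9 (median -0.0565), and none was higher. FOXP3, the factor of regulatory T cells, was called lower in each tissue. It had 26 and 0 fragments in lymph node, 6 and 1 in spleen, and 8 and 1 in thymus. With 3 fragments in place of 0 it was 9.06-fold lower in lymph node, where its counting interval began at 6.86-fold lower. Its spleen fold had a counting interval of 0.850 to 322-fold lower, which includes equal levels. In spleen KLF2, which governs lymphocyte trafficking, was also lower (-1.03, 298 and 173 fragments). ETS1 had 6428 and 3699 fragments in thymus and is listed at 0 in the other 4 libraries, where a failed estimate cannot be told apart from absence.

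Partners of LEF1 in the Wnt pathway, of which 9 of 32 were in the tables, were read beside it. CTNNB1, the β-catenin that LEF1 binds, had log2 ratios of 0.02 in lymph node, -0.45 in spleen and -0.03 in thymus. In lymph node 2 of 9 were higher and 3 lower (median -0.21), with the secreted Wnt modulators DKK3 (3.38) and SFRP2 (2.72) higher and the Wnt inhibitor DKK1 (-2.49, 19 and 2 fragments) lower. In spleen 1 of 8 was lower, DKK1 (-1.71, 7 and 1 fragments; median -0.41). In thymus 3 of 8 were lower (median -0.37): SFRP2 (-1.49), the ligand WNT10B (-1.33, 16 and 3 fragments) and DKK3 (-1.07). SFRP2 and DKK3 were thus higher in the knockout lymph node and lower in the knockout thymus.

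GATA3 was read beside type 2 and innate lymphoid genes. In lymph node 4 of 9 measured genes were higher and 2 lower (median 0.36), led by the lymphotoxin LTB (-3.10), the interleukin 23 receptor IL23RA (2.46, 14 and 114 fragments) and the lymphotoxin LTA (-1.77). In spleen 5 of 7 were lower and none higher (median -1.54), with LTB at -2.86, the interleukin 7 receptor IL7R at -2.67 and LTA with 11 and 0 fragments. In thymus 4 of 9 were lower and 1 higher (median -0.98, or -0.44 with genes at 0 at their bound), with LTB at -3.73, IL-5 on 3 and 0 fragments and IL23RA at -1.83 (26 and 2 fragments). The higher gene was IL7R, at 236 and 560 FPKM (1.24). LTB, which lymphocytes of several kinds make, was lower in each tissue.

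HHEX and BCL11A were read beside progenitor regulators. In thymus 5 of 12 measured progenitor genes were higher and none lower (median 0.77, beside 0.00 for all measured genes), with the factors NFE2 (2.40, 5 and 47 fragments), ERG (1.63) and KLF1 (0 and 7 fragments) leading. In lymph node 2 of 12 were higher and 1 lower (median 0.19): NFE2 (2.44, 1 and 26 fragments) and the stem cell factor receptor KIT (1.17) were higher and the factor MEF2C (-1.16) lower. In spleen 3 of 13 were higher and 2 lower (median 0.40), with IL7R (-2.67), KLF1 (2.22, 5 and 46 fragments) and GATA1 (2.17, 5 and 42 fragments) leading.

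Myeloid genes were higher in the same knockout thymus as HHEX. In thymus 8 of 11 measured were higher and 1 lower (median 2.28), led by the calgranulins S100A8 (4.71), S100A9 (4.23) and S100A12 (3.48). The myeloid and B-cell factor SPI1, chosen after its values were seen, stood at 25.6 and 61.9 FPKM in thymus. The ratio of HHEX to SPI1 there was 0.126 (0.0585 to 0.243) in wild type against 0.189 (0.129 to 0.268) in the knockout, with overlapping intervals. The ratio was lower in the knockout in spleen, at 0.243 (0.205 to 0.287) and 0.135 (0.117 to 0.156). It was also lower in lymph node, at 0.576 (0.491 to 0.674) and 0.465 (0.392 to 0.549). The myeloid list was also higher in lymph node, in 7 of 11 cases with none lower (median 1.59), and in spleen, in 7 of 11 with 2 lower (median 1.86). Macrophage genes of the list were split in spleen, with MSR1 lower (-2.80, 1263 and 209 fragments) and VSIG4 higher (2.58, 5 and 45 fragments). In lymph node S100A12 was at 5.28, S100A9 at 5.17 and S100A8 at 4.91, and in spleen they were at 5.15, 6.34 and 5.13. HHEX was not called in either of those tissues. The part of myeloid RNA in the HHEX values was not tested.

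B-lineage genes gave the setting of BCL11A in the periphery. In lymph node all 8 measured genes of this list were lower (median -6.59, or -6.52 with genes at 0 at their bound), with the receptor chain CD79B (-8.56, 1891 and 2 fragments) and the surface protein MS4A1 (-7.56) the lowest. In spleen 6 of 7 were lower (median -5.25), led by MS4A1 (-6.76) and POU2AF1 (120 and 0 fragments). In thymus 5 of 8 were lower (median -1.57, or -1.07 with genes at 0 at their bound), with MS4A1 at -3.10, FCER2 on 8 and 0 fragments and IRF4 on 2 and 0 fragments. Counting intervals excluded equal levels for 7 of the 8 lower genes in lymph node and 4 of the 5 in thymus. The exception in each was IRF4, with 2 and 1 fragments in lymph node.

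BCL11A in the knockout stood at a larger share of its wild-type level than CD79B in lymph node and spleen. The ratio of BCL11A to CD79B was 0.0479 in the wild-type lymph node (0.0413 to 0.0553) and 6.15 in the knockout (1.55 to 53.3), and in spleen 0.0676 (0.0525 to 0.0861) and 1.98 (1.05 to 4.06). In the knockout lymph node BCL11A had 28 fragments where MS4A1 had 6 and CD79B 2. In the knockout spleen it had 54 where CD79B had 12 and MS4A1 had 2. CD79B was the lowest gene of the B-lineage list in lymph node, and this direction depends on the gene chosen. CD40 of the same list was 2.92-fold lower in the knockout lymph node (2.49 to 3.43) and 1.01-fold lower in spleen (0.872 to 1.18). BCL11A was 7.73-fold and 1.67-fold lower there.

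Dendritic cell genes, of which 8 of 20 were in the tables, were called in lymph node in 1 case, the nucleic acid sensor TLR9 (-1.01; median -0.40). In spleen 3 of 8 were higher and 3 lower (median 0.40), with CCL17 (2 and 0 fragments), the interferon factor IRF7 (1.75) and the actin bundler FSCN1 (1.55) leading. In thymus 4 of 8 were higher and 3 lower (median 0.35). The 3 lower were the chemokine genes CCL22 (40 and 0 fragments) and CCL17 (-4.14, 27 and 1 fragments) and FSCN1 (-2.43). The 4 higher were XCR1 (2.12), IRF8 (1.48), TLR7 (1.31) and TLR9 (1.15). IRF8, a dendritic cell and B-cell factor chosen after its values were seen, stood at 45.0 and 127 FPKM in thymus, and the ratio of BCL11A to IRF8 there was 0.0952 (0.0574 to 0.157) and 0.0545 (0.0384 to 0.0764). The part of dendritic cell RNA in the BCL11A values was not tested.

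**Figure D4:**
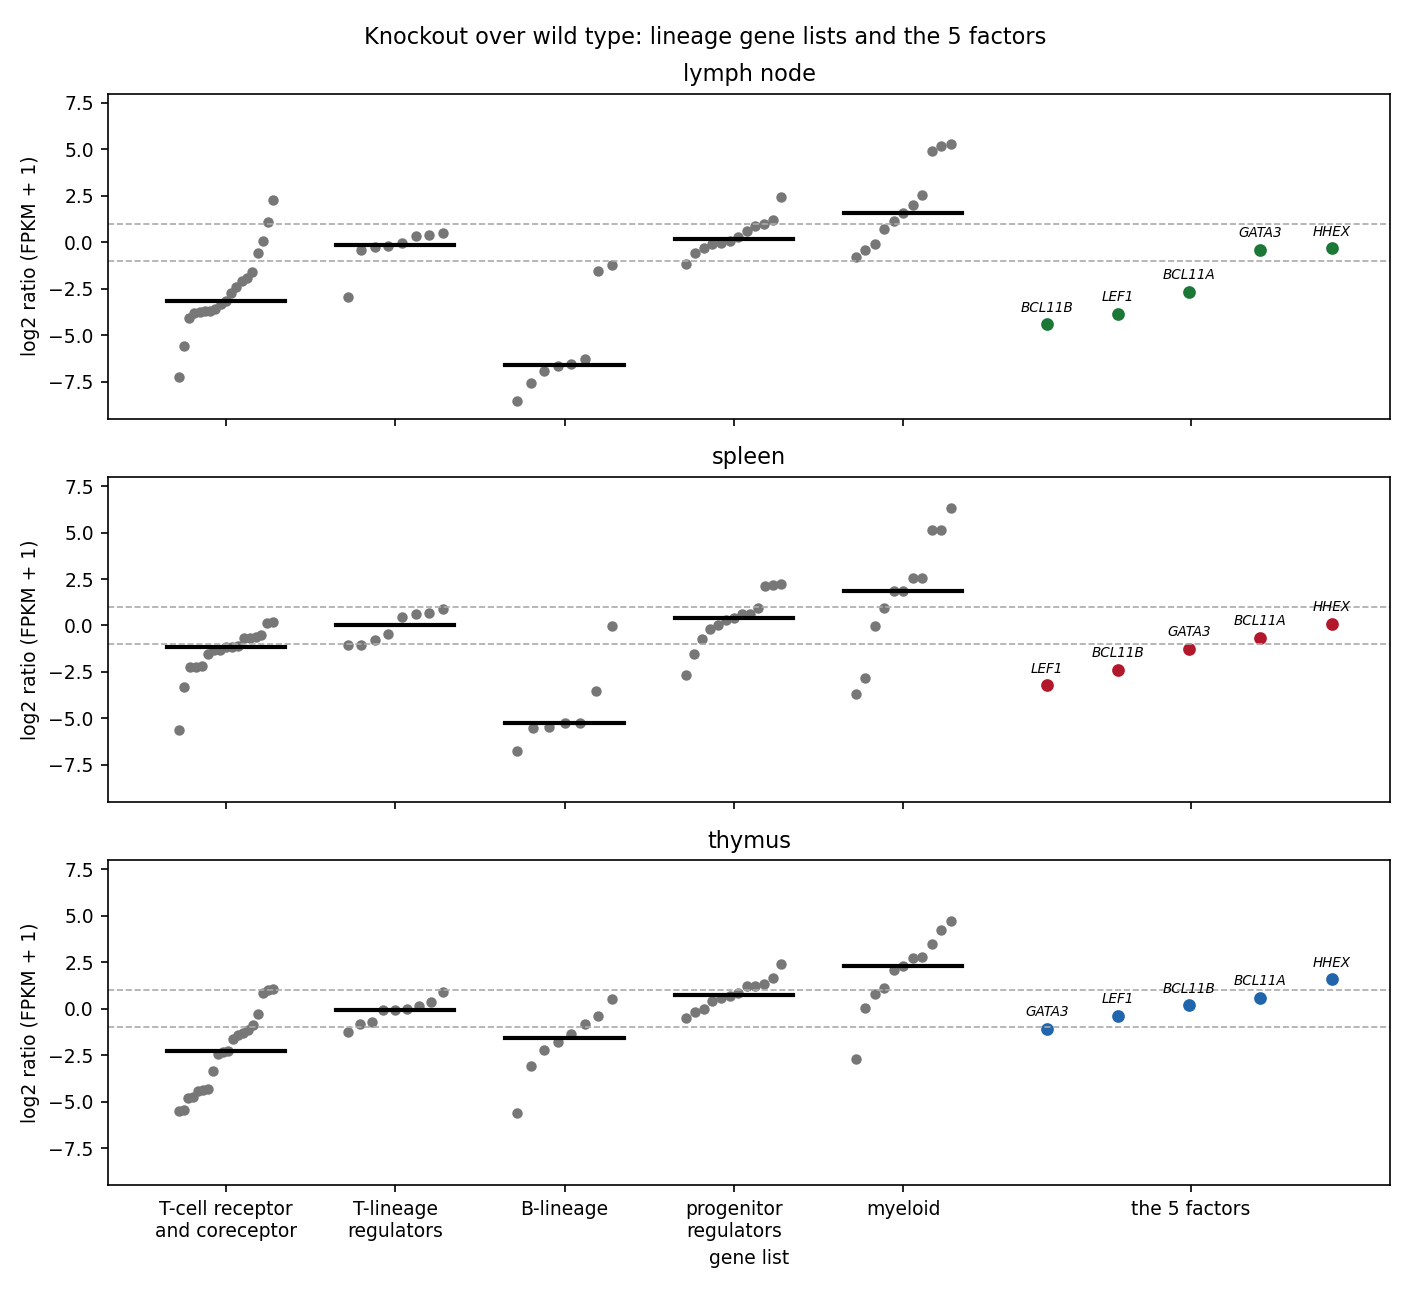
Log2 ratio of knockout over wild type (FPKM with 1 added) for the measured genes of 5 lineage lists in grey, with list medians as black bars, and for the 5 factors in colour, in each tissue; dashed lines mark the size for a call. In thymus the T-cell receptor list has a median of -2.30 while BCL11B stands at 0.20 and LEF1 at -0.38, and in lymph node BCL11B and LEF1 lie within the range of that list.

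The genes most like each factor were ranked by Pearson correlation of log2 FPKM (with 1 added) over the 6 libraries, among 2804 genes at 5 FPKM or more in at least 1 library. The libraries of a tissue share a table and those of a genotype may share an animal, so the correlations are a description. BCL11B was most like EIF2C1, the chemokine receptor CXCR4 and LEF1, each with r = 0.99. LEF1 was most like SRSF11 (r = 0.997), FKBP3 and CXCR4 (r = 0.995 for each). CXCR4 stood at 2111 and 1661 FPKM in thymus, 453 and 120 FPKM in lymph node, and 248 and 82.1 FPKM in spleen, in the order wild type and knockout. The correlation takes no account of size, and SRSF11 spanned from 176 to 535 FPKM where LEF1 spanned from 1.96 to 1359 FPKM.

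GATA3 was most like C5H12orf29, PRKAR1A and TNFAIP3 (r = 0.99 for each). TNFAIP3, an inhibitor of NF-κB signalling, stood at 286 and 200 FPKM in thymus and between 52.1 and 138 FPKM in the other libraries. HHEX was most like the complement gene C2 (r = 0.996), the phagocyte oxidase gene NCF1 and the connexin gene GJD3 (r = 0.99 for each). C2 stood at 165 and 135 FPKM in lymph node, 102 and 130 FPKM in spleen, and 16.2 and 35.1 FPKM in thymus. BCL11A had looser matches: KLK1 (r = 0.96, on 14 fragments at most), LOC100153714 (r = 0.96) and the hypoxia factor HIF1A (r = 0.93). HIF1A had 323 FPKM in the wild-type lymph node and between 146 and 179 FPKM elsewhere, the same single high library as BCL11A.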

How the data were processed

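Per the submitters' processing notes, FastQC 0.11.9, Trimmomatic 0.39, STAR 2.7.9a, Cufflinks 2.2.1 and the build Sscrofa11.1 were used; per the labels' protocols, libraries came from a stranded total RNA kit. Tool order, gene annotation and strand setting: not given in the sources used here. The authors deposited 3 tables of FPKM and 3 tables of estimated counts, 1 of each per tissue. The deposited counts carry 1 factor per library, between 0.925 and 1.08, taken as the most frequent value above 0. Of the values above 0, 97.0 to 99.2% were whole within 0.02 after division by it, and these were rounded to fragments. Symbols were matched to RefSeq names of Sscrofa11.1 (3721 current, 226 older, 175 unmatched).

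Genes at 1 FPKM or more in either library of a tissue were taken as measured. No test was made, since each tissue and genotype has 1 library, and a fit of genotype over tissues was not made. The members and the 12 gene lists were chosen with earlier results of these data known. Named genes are the 5 factors, RAG1 and RAG2, up to 3 called members with the largest log2 ratio in size per list and tissue, and the 3 genes most correlated with each factor; a B-lineage gene that the rule names is not reported here. CTNNB1, ETS1, SPI1, IRF8, MSR1, VSIG4 and the pairs with CD3E, CD79B, SPI1 and IRF8 were chosen after values were seen. So were the T-cell genes CD3D, CD247, LCK and CD2, the B-lineage gene CD40 and the dendritic cell genes TLR7 and XCR1. In lists, a gene at 0 was bounded against 3 fragments per library. On simulated counts with 200 changed genes, 97.0, 97.0 and 96.0% of genes made 4-fold higher and 90.0, 94.0 and 86.0% of those made 4-fold lower were recovered by size and interval in lymph node, spleen and thymus. The reported calls rest on size alone, so these shares do not describe them directly. The simulated counts held counting error only and no spread between animals. Alternatives were other scalings of the counts (to their total, with edgeR 4.0.16 TMM factors, with DESeq2 1.42.0 size factors, counts rounded), other pseudocounts, minimums and thresholds. Python 3.11.15, scipy 1.17.1 and R 4.3.3 were used.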

Additional observations from a re-analysis of the deposited data

Results flagged for a closer look

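BCL11B, HHEX and BCL11A were higher in the knockout thymus and lower in another knockout tissue, each beyond counting error. With 1 library per tissue and genotype, the difference between tissues was not tested. The log2 ratio of BCL11B was 4.60 higher in thymus than in lymph node and 2.57 higher than in spleen. For HHEX thymus exceeded lymph node by 1.92. For BCL11A thymus exceeded lymph node by 3.25 and spleen by 1.24. The thymus values of BCL11B and BCL11A, the spleen value of BCL11A and the lymph node value of HHEX were under the size for a call.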

How the results depend on the processing

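The labels carry no replicate numbers, and a fit of genotype with tissue as a block over the 3 tissue pairs was not made. Of 90 alternative values of the 15 log2 ratios of the 5 factors, 88 kept their direction and side of the size for a call. GATA3 lost its call in spleen with a pseudocount of 5 (-0.523) and in thymus with counts scaled to their total (-0.981), a scaling that placed the median of all measured thymus genes at 0.12. Genes higher and lower numbered 446 and 299 in lymph node, 253 and 286 in spleen and 441 and 317 in thymus. With a threshold of 2 they numbered 163 and 112, 79 and 76, and 110 and 105, and with a pseudocount of 5 they were 166 and 160 in spleen and 272 and 183 in thymus. A minimum of 10 fragments, chosen after seeing the data, moved no count by more than 1.5 times. Of 288 alternative list medians 274 kept direction and side. The median of type 2 and innate lymphoid genes turned to 0.0 in lymph node without an expression minimum and to 0.32 in thymus with a minimum of 5 FPKM, which test other genes. With a pseudocount of 5 the medians were -0.901 for T-cell receptor genes and -0.608 for type 2 and innate lymphoid genes in spleen, -0.758 for B-lineage genes in thymus and 0.942 for endothelial genes in lymph node, and the cause was not tested. Without an expression minimum the spleen type 2 median was -0.218. Counts of 4 and 5 fragments limit BCL11B in the knockout periphery and GATA3 in the knockout spleen. Of the 3 genes most like each factor, 3 stayed with a minimum of 20 FPKM for all factors but BCL11A, which kept 2, and with a pseudocount of 5 GATA3 kept 0 and BCL11B 1, and with 0.1 LEF1 kept 1.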

Other observations

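Blood endothelial genes, a group among which HHEX is known, were higher in 5 of 6 measured cases in the knockout thymus (median log2 ratio 1.64) and in 3 of 6 in lymph node (median 1.004), with none called in spleen (median 0.28). In thymus CLDN5, a tight junction gene, stood at 2.27, the chemokine receptor gene DARC at 2.17 and the nitric oxide synthase NOS3 at 1.99, and in lymph node they stood at 1.44, 1.10 and 1.09. HHEX was higher in thymus and not in lymph node, and the part of endothelial RNA was not tested. Chromatin partners of the BCL11 proteins, with 6 of 26 in the tables, were called in 1 case in lymph node, the methyltransferase EZH2 (-1.68; median 0.29), in none in spleen (median -0.30) and in 1 in thymus, the nuclear receptor NR2F2 (1.47; median 0.0556).

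Cell cycle genes were lower in 10 of 11 measured cases in the knockout lymph node (median -2.26; CDK1 -3.47, TOPOII -3.20, CDC20 -2.75), in none in spleen (median -0.30) and in 1 in thymus, PCNA (-1.44; median -0.54). Of thymic epithelium genes 2 of 6 were lower and 1 higher in thymus (median -0.80), with CLDN3 on 5 and 0 fragments, CCL25 at -1.78 and CLDN4 at 1.41. In lymph node 2 of 4 were higher (median 0.92, or 0.49 with genes at 0 at their bound), CLDN4 at 3.89 and CLDN3 on 0 and 2 fragments. In spleen 2 of 5 were lower and 1 higher (median -0.67), with DLL4 at -1.34, CLDN3 on 4 and 1 fragments and CCL25 on 0 and 1 fragments.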
